A study of Mus musculus with 10 samples.

Results

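The Egr and Nr4a immediate early transcription factors, with the early response genes Ier2 and Ier3, were followed as a set of 9 genes. They were taken by exact gene name from 2 tables of RNA sequencing values, and all 9 were found in both, among 22583 distinct gene names in the rib chondrocyte table and 22645 in the calvarial osteoblast table. The rib cells were sorted from ICR mice at P1, the first day after birth. The Col10+ sort carried the Col10a1-mCherry transgene, which marks hypertrophic chondrocytes, and the Col2+ sort the Col2a1-ECFP transgene, which marks cartilage cells, with 3 libraries each. The osteoblasts came from C57BL/6 embryos at E17.5 with the genotype Runx2_cHom_KO or Runx2_cHet_KO, 2 libraries each. The labels do not spell these names out. Runx2 is a transcription factor needed to form osteoblasts, and neither the cells in which it was targeted nor the number of animals per library is given in the sources used here.

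Immediate early genes are switched on within minutes of a stimulus by factors already present in the cell, with no need for new protein. Growth factors and MAP kinase signalling act on them through serum response factor bound to CArG boxes with its Ets partners, and cyclic AMP and calcium through CREB bound to cyclic AMP response elements. Egr1 to Egr4 are zinc finger factors that bind GC-rich DNA and are restrained by the corepressors Nab1 and Nab2. Nr4a1 (Nur77), Nr4a2 (Nurr1) and Nr4a3 (Nor1) are orphan nuclear receptors that act without a known hormone, and in bone cells they are known as early targets of parathyroid hormone. Ier2 is a small nuclear early response protein and Ier3 an NF-kappaB-responsive regulator of cell survival. Enzymatic release of cells from tissue is also known to induce these genes. Both rib sorts were released with pronase and collagenase D, and the calvarial cells with collagenase D and dispase, per the labels' protocols, and the part of this step in the values was not tested.

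Start regions are shown for 5 members because these hold letters of an element through which early genes are known to be induced. RefSeq promoters of build GRCm38.p6 were matched for 6 members (Egr2, Egr4, Nr4a1, Nr4a2, Nr4a3 and Ier3), and Egr1, Egr3 and Ier2 are named only. The 250 bases before each start were searched on both strands. Capitals mark the core letters of the cyclic AMP response element, TGACG or its reverse CGTCA, and the CArG box of serum response factor. For Nr4a1 (chr15:101266596-101266845, plus strand), Nr4a2 (chr2:57124004-57124253, minus strand) and Egr4 (chr6:85513590-85513839, minus strand) all 250 bases are given. For Nr4a3 (chr4:48045070-48045099, plus strand) and Egr2 (chr10:67537793-67537822, plus strand) a stretch of 30 bases is given.
Nr4a1: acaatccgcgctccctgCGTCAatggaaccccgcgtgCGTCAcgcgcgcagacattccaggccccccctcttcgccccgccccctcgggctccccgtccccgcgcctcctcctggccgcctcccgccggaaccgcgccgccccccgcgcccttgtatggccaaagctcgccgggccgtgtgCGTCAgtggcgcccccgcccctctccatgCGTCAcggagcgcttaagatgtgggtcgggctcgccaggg
Nr4a2: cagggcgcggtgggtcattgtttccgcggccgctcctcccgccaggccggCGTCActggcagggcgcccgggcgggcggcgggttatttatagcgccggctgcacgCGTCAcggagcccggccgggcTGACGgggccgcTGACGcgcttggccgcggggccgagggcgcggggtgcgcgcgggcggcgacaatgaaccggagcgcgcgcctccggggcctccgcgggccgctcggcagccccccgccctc
Nr4a3: agggTGACGtagcgtcccatgtCGTCAcat
Egr4: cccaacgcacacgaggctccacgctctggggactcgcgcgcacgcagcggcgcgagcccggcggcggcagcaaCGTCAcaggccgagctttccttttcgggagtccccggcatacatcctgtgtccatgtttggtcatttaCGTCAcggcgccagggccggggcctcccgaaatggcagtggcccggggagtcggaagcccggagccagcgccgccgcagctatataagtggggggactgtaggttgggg
Egr2: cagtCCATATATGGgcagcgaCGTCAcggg

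The TGACG core was present before at least 1 start in 5 of the 6 matched members. Counted by promoter and not by gene, it was present in 17.8% of 32851 promoters in the table, several of which belong to one gene and overlap. Egr2 had 5 starts, and those at 67535499 and 67537566 held no TGACG core. Each of the 3 Nr4a promoters held 4 copies, a number reached or passed by 0.137% of promoters, while Egr4 and the Egr2 start shown held 2, and 3.9% of promoters held 2 or more. Ier3 held none. A CArG box lay in the Egr2 promoter at 72 bases before the start shown, 1 of 5 annotated starts, and 1.47% of promoters held one. The windows of the Egr2 starts at 67537870 and 67537930 held the same box. The window of the start at 67537566 held another CArG box, and that of the start at 67535499 held none. The full element TGACGTCA, the Runx core TGTGGT, the Egr site GCGTGGGCG and the Nr4a response element AAAGGTCA were not found in these windows for any of the 6 members. They were present in 1.55%, 14%, 0.536% and 1.34% of promoters. The TGACGTCA element contains the TGACG core on both strands. These are matches of letters in the reference genome, not measured binding.

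All values are FPKM, fragments scaled to transcript length and to all mapped fragments of a library, so levels of different genes can be compared within a column. The rib table held 1 value per sort for the 3 libraries together, so its differences have no replicate check. The FPKM column totals were 712295 for Col10+ cells and 567147 for Col2+ cells, and ranged over 536770 to 567272 for the osteoblasts. Read depth was unknown. The labels were checked first. Col10a1 was at 2895 FPKM in Col10+ cells and 59.5 FPKM in Col2+ cells. Runx2 was at 32.9 and 32.6 FPKM in the Runx2_cHom_KO libraries and at 43.4 and 53.9 FPKM in the Runx2_cHet_KO libraries, without passing the test (limma adjusted p = 0.0707), and a whole-gene value does not show whether exons were deleted. Libraries of the osteoblasts were not alike in other cells. The summed level of 9 macrophage markers was 61.9 and 76.8 FPKM in Runx2_cHom_KO libraries, against 375 and 56.9 FPKM in Runx2_cHet_KO libraries, so Runx2_cHet_KO library 1 stood apart.

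**Figure D1:**
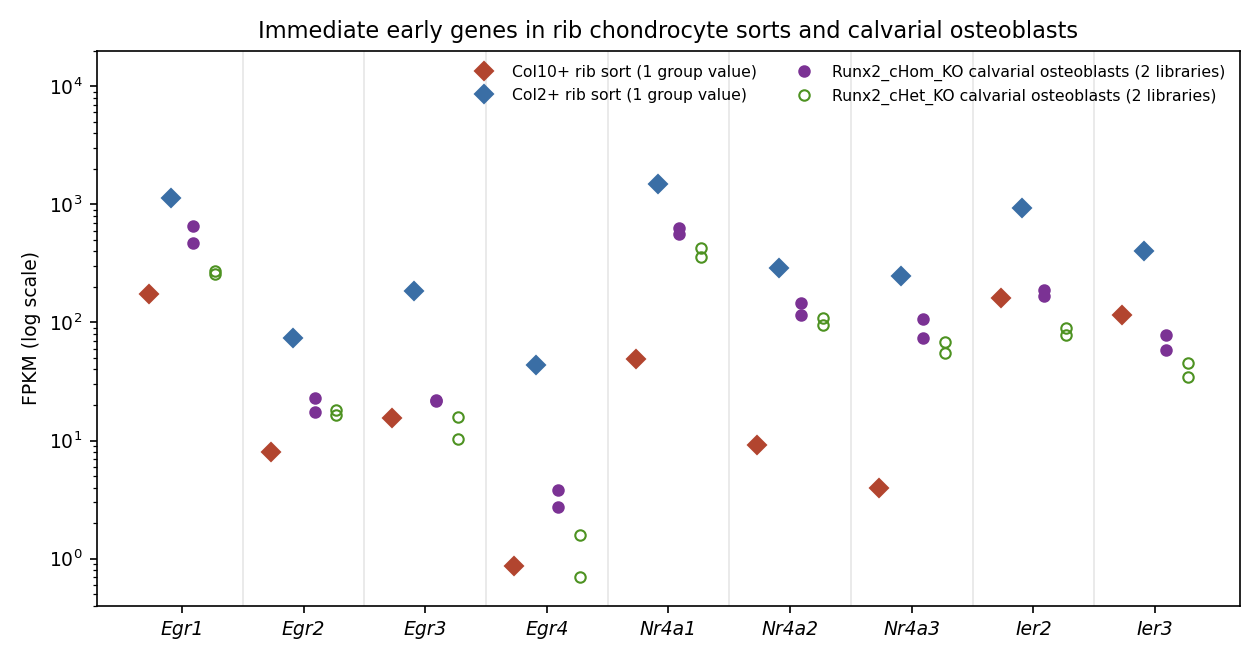
FPKM on a log axis for each of the 9 genes, with 1 diamond per rib sort (a group value of 3 libraries) and 1 circle per osteoblast library. The Col2+ diamond is the highest value of every gene, and for Egr2 alone the 2 osteoblast genotypes overlap.

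The first comparison asked how Col10+ cells differ from Col2+ cells. Every one of the 9 genes was lower in the Col10+ sort, by 3.51-fold for Ier3 to 61.8-fold for Nr4a3. The Nr4a receptors differed most, at 62.2 FPKM in sum in Col10+ cells and 2027 FPKM in Col2+ cells, 32.6-fold. The Egr factors summed to 200.3 FPKM in Col10+ cells and 1427 FPKM in Col2+ cells, 7.12-fold. Ier2 with Ier3 summed to 275 FPKM in Col10+ cells and 1336 FPKM in Col2+ cells, 4.86-fold. A gene was counted as lower where log2(FPKM + 1) differed by at least 1 and the higher sort had at least 5 FPKM, and 14.2% of 8354 genes met this while 13.8% were higher to the same extent. All 9 members had at least 5 FPKM in one sort. Their median difference on the log2(FPKM + 1) scale was -3.48, against -0.31 over the 8354 genes.

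Among the Nr4a receptors, Nr4a1 was at 48.9 FPKM in Col10+ cells and 1491 FPKM in Col2+ cells. Ordered by level among all named genes, it stood at rank 1016 in Col10+ cells and at rank 51 in Col2+ cells. Nr4a2 was at 9.24 FPKM in Col10+ cells and 290 FPKM in Col2+ cells, 31.4-fold lower. Nr4a3, the least abundant of the 3 receptors, was at 3.998 FPKM in Col10+ cells and 247 FPKM in Col2+ cells. Ordered by the signed log2 difference among the 8354 genes, Nr4a3, Nr4a1 and Nr4a2 held places 5, 7 and 8 from the most negative. Nr4a1 supplied 78.7% of the summed Nr4a FPKM in Col10+ cells and 73.5% in Col2+ cells, and Nr4a3 supplied 6.43% in Col10+ cells and 12.2% in Col2+ cells.

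Among the zinc finger factors, Egr1 was at 176 FPKM in Col10+ cells and 1125 FPKM in Col2+ cells, 6.40-fold lower. It remained abundant in both, at rank 260 in Col10+ cells and rank 75 in Col2+ cells. Egr2 was at 8.04 FPKM in Col10+ cells and 73.8 FPKM in Col2+ cells, 9.18-fold lower. Egr3 was at 15.7 FPKM in Col10+ cells and 185 FPKM in Col2+ cells, 11.8-fold lower. Egr4 was at 0.873 FPKM in Col10+ cells and 43.4 FPKM in Col2+ cells, 49.8-fold lower, a ratio that rests on a value under 1 FPKM. The smaller members thus differed more than Egr1, which supplied 87.7% of the summed Egr FPKM in Col10+ cells and 78.8% in Col2+ cells. The 2 Ier genes had the smallest differences of the set on the log2 scale. Ier2 was at 160 FPKM in Col10+ cells and 932 FPKM in Col2+ cells, a log2 difference of -2.54, and Ier3 was at 115 FPKM in Col10+ cells and 404 FPKM in Col2+ cells, a log2 difference of -1.80.

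Other cell types and the cartilage cells themselves gave these values beside that difference. The 6 chondrocyte markers summed to 36782 FPKM in Col10+ cells and 51085 FPKM in Col2+ cells, a 1.39-fold difference in a sum that is mostly Col2a1, at 31532 FPKM in Col10+ cells and 44205 FPKM in Col2+ cells. The 6 markers were not alike. Sox9, a cartilage transcription factor named here after its values were seen, was at 103 FPKM in Col10+ cells and 595 FPKM in Col2+ cells, 5.77-fold lower and more than Ier3, while Matn3 and Comp had log2 differences of 0.40 and 0.57. Markers of neutrophils, macrophages and vessel cells were counted where they reached 5 FPKM in one sort. All 8 neutrophil, 9 macrophage and 5 endothelial genes so counted were higher in Col10+ cells, against 13.8% of all genes. None of them reached 5 FPKM in Col2+ cells, where Cd68 was highest at 3.16 FPKM. Each was thus counted through its Col10+ value, and the direction alone adds little. The endothelial marker Tek, at 3.03 FPKM in Col10+ cells and 0.005 FPKM in Col2+ cells, was not counted. Neutrophil markers summed to 4035 FPKM in Col10+ cells and 0.306 FPKM in Col2+ cells, with Camp, Retnlg and Ltf listed at 0 in Col2+ cells. Macrophage markers summed to 1725 FPKM in Col10+ cells and 3.45 FPKM in Col2+ cells, with Tyrobp, C1qa, C1qb, C1qc and Emr1 listed at 0 in Col2+ cells. Endothelial markers summed to 77.8 FPKM in Col10+ cells and 0.197 FPKM in Col2+ cells, with Cdh5 and Emcn listed at 0 in Col2+ cells. All 4 hypertrophic chondrocyte markers were higher in Col10+ cells, with sums of 3241 FPKM in Col10+ cells and 61.5 FPKM in Col2+ cells. Both sums are mostly Col10a1, the gene whose transgene marked the sort, so they largely restate the sorting. In Col10+ and Col2+ cells, Ihh was at 32.9 and 1.52 FPKM, Mmp13 at 78.4 and 0.424 FPKM and Ibsp at 235 and 0.0467 FPKM. Bone cell markers differed too. Of 7 osteoblast markers, 6 were higher and 1, Spp1, lower in Col10+ cells, with Bglap listed at 0 in Col2+ cells. They summed to 7590 FPKM in Col10+ cells and 3695 FPKM in Col2+ cells, where Spp1 alone was at 3400 FPKM. Spp1 had a log2 difference of -1.07, and no longer met the limit with columns scaled to the median ratio of genes. Col1a1 was at 3305 FPKM in Col10+ cells and 10.6 FPKM in Col2+ cells. Ibsp is on both lists, so the osteoblast list does not mark bone cells alone. Osteoclast markers summed to 282 FPKM in Col10+ cells and 20.1 FPKM in Col2+ cells, with Dcstamp listed at 0 in Col2+ cells. Skeletal muscle markers summed to 93.2 FPKM in Col10+ cells and 35.1 FPKM in Col2+ cells, with Ckm and Myog listed at 0 in Col2+ cells. The 2 erythroid markers measured here summed to 46.9 FPKM in Col10+ cells and 0.101 FPKM in Col2+ cells, with Slc4a1 listed at 0 in Col2+ cells. The part of these cells in the members' difference was not tested. Fewer cells of a type and less RNA per cell cannot be told apart in such sorts.

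The related lists gave the setting of the 9 genes in the rib sorts. Over all 8354 genes, 14.2% were lower and 13.8% higher in Col10+ cells, with a median log2 difference of -0.31. Of 15 other immediate early transcription factors, 12 were lower in Col10+ cells and 0 higher, with a median log2 difference of -2.36. Fosb, an AP-1 subunit, was at 17.3 FPKM in Col10+ cells and 329 FPKM in Col2+ cells. Its relatives Fosl1, Fos and Junb had log2 differences of -2.96, -2.56 and -2.48. Of 19 genes of feedback and mRNA decay, 8 were lower and 1 higher, with a median of -0.81. Btg2, an antiproliferative early gene, was at 52.8 FPKM in Col10+ cells and 509 FPKM in Col2+ cells, and Spry2 and Errfi1, inhibitors of growth factor signalling, had log2 differences of -3.09 and -3.05. The higher one was Nfkbia, the inhibitor of NF-kappaB, at 49.0 FPKM in Col10+ cells and 4.36 FPKM in Col2+ cells.

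Of 14 secreted and cytoplasmic early response genes, 10 were lower and 2 higher in Col10+ cells, with a median log2 difference of -1.42. Hbegf, a ligand of the EGF receptor, was at 10.8 FPKM in Col10+ cells and 287 FPKM in Col2+ cells. Rcan1, an inhibitor of calcineurin, was at 62.8 FPKM in Col10+ cells and 1223 FPKM in Col2+ cells, and Arc and Trib1 had log2 differences of -3.92 and -3.15. The higher ones, chosen after their values were seen, were Il6 (log2 difference 2.92) and Plk2 (1.16). The factors that act upstream showed smaller differences, with 2 of 9 lower, 1 higher and a median of -0.66. Counts among 9 genes are too small to be set apart from the shares over all genes. Srf, which encodes serum response factor, was at 14.1 FPKM in Col10+ cells and 42.4 FPKM in Col2+ cells, Elk3 was lower by a log2 difference of -1.16 and Mkl1, a coactivator of serum response factor, was higher by 1.10.

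Genes that restrain Egr factors or that they are known to activate were divided in the rib sorts. Of the Egr corepressors and retinoid X receptor partners of Nr4a, 3 reached 5 FPKM and 1 was lower, Nab2, at 36.5 FPKM in Col10+ cells and 126 FPKM in Col2+ cells. Nab2 is itself a known target of Egr1. Of 7 known Egr1 targets, 3 were lower and 1 higher, with a median log2 difference of -0.65. F3, which encodes tissue factor, was at 8.98 FPKM in Col10+ cells and 97.5 FPKM in Col2+ cells, Fgf2 had a log2 difference of -2.18, and Pdgfb was higher by 2.86. Of 8 heat shock genes, which also respond to cell isolation, 4 were lower and 2 higher in Col10+ cells. Their median log2 difference was -0.98. Dnajb1 was at 39.6 FPKM in Col10+ cells and 278 FPKM in Col2+ cells, while Hspa1a and Hspa1b were higher by log2 differences of 1.91 and 1.37. With columns scaled to the median ratio of genes, all 9 members still met the limit. Elk3, Fosl2, Jun, Dusp2, Lif, Plk3, Hspa8, Hspe1 and Hspd1 no longer did, nor did the osteoblast marker Spp1.

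**Figure D2:**
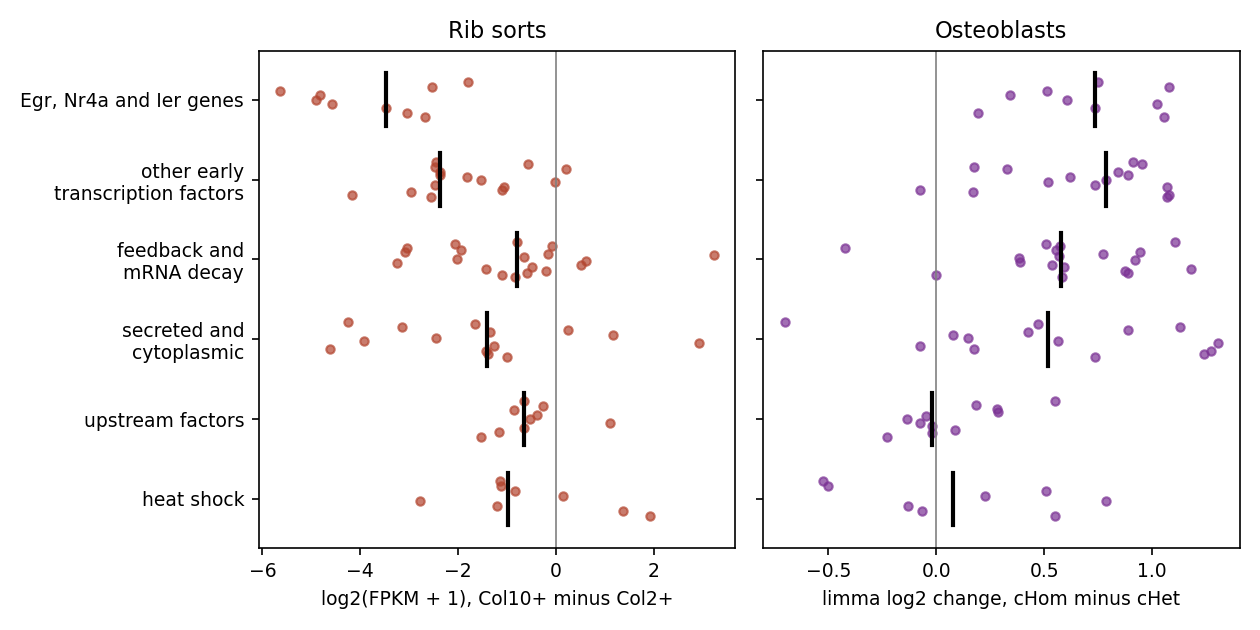
Each point is 1 gene of a list and each black bar the list's median, for the log2(FPKM + 1) difference of Col10+ minus Col2+ cells (left) and the limma log2 change of Runx2_cHom_KO minus Runx2_cHet_KO osteoblasts (right). Medians of the 3 other early response lists are below 0 on the left and above 0 on the right, at -2.36, -0.81 and -1.42 against 0.79, 0.58 and 0.52.

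The second comparison asked how Runx2_cHom_KO osteoblasts differ from Runx2_cHet_KO osteoblasts. Egr1 and Ier2 rose, each to about 2.1 times the Runx2_cHet_KO level, and none of the 9 genes fell. The other 7 did not pass the test, although 6 of them had both Runx2_cHom_KO libraries above both Runx2_cHet_KO libraries. Calls required a limma adjusted p under 0.05, over all 11909 genes tested, together with a change of 1 or more on the log2 scale. By this rule 2.3% of genes rose and 1.39% fell. Both Runx2_cHom_KO libraries lay above both Runx2_cHet_KO libraries in 8 of the 9 members and in 26.7% of all genes tested. The median log2 change was 0.74 over the 9 members and -0.03 over all genes. Whether each library is a separate embryo is not stated, so the spread behind these p-values is that between libraries and may be technical.

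Egr1 was at 469 and 650.1 FPKM in the Runx2_cHom_KO libraries, against 258.8 and 273 FPKM in the Runx2_cHet_KO libraries. The Runx2_cHom_KO libraries differed more from each other than the Runx2_cHet_KO libraries did, and both lay above them. The log2 change was 1.05 with a standard error of 0.17 (limma adjusted p = 0.0307). Egr2 was at 17.4 and 22.9 FPKM in Runx2_cHom_KO libraries and at 18.2 and 16.4 FPKM in Runx2_cHet_KO libraries, so the genotypes overlapped, and its log2 change was 0.19 ± 0.16 (SE; limma adjusted p = 0.487). Egr3 was at 21.8 and 22.0 FPKM in Runx2_cHom_KO libraries and at 15.8 and 10.3 FPKM in Runx2_cHet_KO libraries, and did not pass (limma adjusted p = 0.0890). Egr4, the rarest of the set, was at 2.76 and 3.84 FPKM in Runx2_cHom_KO libraries and at 1.59 and 0.695 FPKM in Runx2_cHet_KO libraries. Its log2 change of 1.02 had a standard error of 0.28, larger than that of any other member, and did not pass (limma adjusted p = 0.0872).

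None of the Nr4a receptors passed the test. Nr4a1, again the most abundant, was at 628 and 566 FPKM in Runx2_cHom_KO libraries and at 426 and 360 FPKM in Runx2_cHet_KO libraries. Its log2 change was 0.61 ± 0.13 (SE; limma adjusted p = 0.0552). Nr4a2 was at 146 and 117 FPKM in Runx2_cHom_KO libraries and at 110 and 96.0 FPKM in Runx2_cHet_KO libraries, a log2 change of 0.34 ± 0.15 (SE; limma adjusted p = 0.214). Nr4a3 was at 107 and 73.2 FPKM in Runx2_cHom_KO libraries and at 69.0 and 55.1 FPKM in Runx2_cHet_KO libraries, a log2 change of 0.51 ± 0.21 (SE; limma adjusted p = 0.195). For both, the lower Runx2_cHom_KO library was close to the higher Runx2_cHet_KO library.

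Ier2 was at 168 and 189 FPKM in Runx2_cHom_KO libraries and at 89.8 and 78.4 FPKM in Runx2_cHet_KO libraries. It had the smallest standard error of the 9 genes and the lowest adjusted p, with a log2 change of 1.08 ± 0.12 (SE; limma adjusted p = 0.0166). Ier3 was at 58.4 and 77.8 FPKM in Runx2_cHom_KO libraries and at 45.8 and 34.5 FPKM in Runx2_cHet_KO libraries, with a log2 change of 0.75 ± 0.20 (SE; limma adjusted p = 0.0827). The members also differed between libraries of one genotype. Between the Runx2_cHom_KO libraries, Nr4a1, Nr4a2 and Nr4a3 were higher in library 1 and the other 6 in library 2, and 55.3% of all genes tested were higher in library 1. Between the Runx2_cHet_KO libraries, 8 of the 9 were higher in library 1 and Egr1 in library 2, and 44.9% of all genes tested were higher in library 1. A two-sided exact permutation test of 2 libraries against 2 cannot go below p = 0.333 for any single gene.

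**Figure D3:**
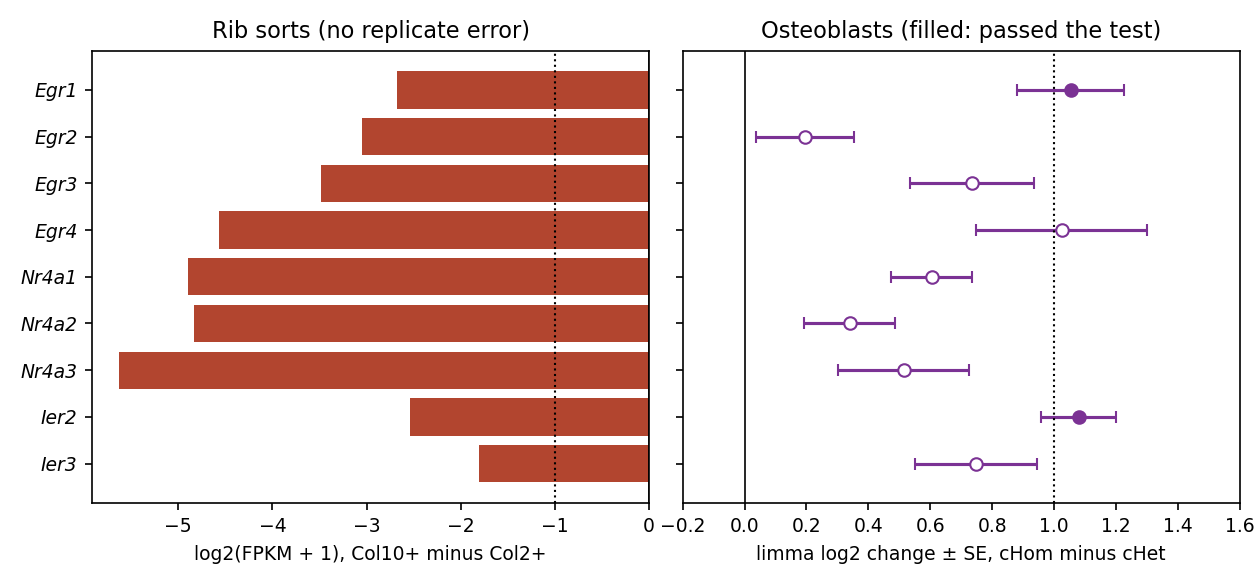
Differences of the 9 genes on the log2(FPKM + 1) scale, Col10+ minus Col2+ rib cells as bars (left, 1 value per sort) and Runx2_cHom_KO minus Runx2_cHet_KO osteoblasts as points with limma standard errors (right, n = 2 libraries each). Dotted lines mark the limit of 1, all 9 bars pass it downwards, and the filled points are Egr1 and Ier2.

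Leaving out either Runx2_cHom_KO library ended both calls, and nearly all calls over the whole table. Without Runx2_cHom_KO library 1 limma called 0 of 11547 genes, with 1570 at an unadjusted p under 0.05. There the log2 change was 1.29 for Egr1 and 1.16 for Ier2, each with an adjusted p of 0.213. Without Runx2_cHom_KO library 2 limma called 1 of 11537 genes and 0 of the 9, with 1679 at an unadjusted p under 0.05. There the log2 change was 0.82 for Egr1 (adjusted p = 0.231) and 0.996 for Ier2 (adjusted p = 0.213). Without Runx2_cHet_KO library 1, the one with the high macrophage markers, Ier2, Egr3 and Egr4 were called, with limma adjusted p of 0.0131 and log2 change 1.02 for Egr3 and 0.0387 and 1.33 for Egr4, and Egr1 was not (adjusted p = 0.0582). Without Runx2_cHet_KO library 2, Egr1 was called and Ier2 had a log2 change of 0.98 (adjusted p = 0.0112), just under the size limit. In these fits the genotype left with 1 library is assumed to vary like the other.

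Markers of other cell types also differed between the osteoblast genotypes. All 6 endothelial markers lay higher in both Runx2_cHom_KO libraries (26.7% of all genes), and 1 of the 6, Tek, rose. Their sums were 51.1 and 44.3 FPKM in Runx2_cHom_KO libraries against 22.4 and 6.38 FPKM in Runx2_cHet_KO libraries. Muscle markers summed to 34.0 and 41.7 FPKM in Runx2_cHom_KO libraries and to 0.535 and 2.47 FPKM in Runx2_cHet_KO libraries, and all 4 that were tested rose, with Ckm listed at 0 in both Runx2_cHet_KO libraries. Chondrocyte markers summed to 284 and 409 FPKM in Runx2_cHom_KO libraries and to 235 and 142 FPKM in Runx2_cHet_KO libraries, with 0 of 6 called. All 6 log2 changes were positive, with a median of 0.81, and 4 of the 6 lay higher in both Runx2_cHom_KO libraries. Acan passed the limit of adjusted p (limma adjusted p = 0.0172) but not the size limit, with a log2 change of 0.85. Osteoblast markers were lower in both Runx2_cHom_KO libraries for all 7 genes (31.3% of all genes), and 3 of the 7, Sp7, Bglap and Spp1, fell. Bglap was listed at 0 in both Runx2_cHom_KO libraries, and reads of its near-identical neighbours make it uncertain. Neutrophil markers summed to between 0 and 3.91 FPKM in the 4 libraries. The part of these cells in the members' values was not tested.

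In the osteoblasts a minority of the other early response genes met both limits, and each of these rose. Of 15 other immediate early transcription factors tested, 3 rose and 0 fell, with a median log2 change of 0.79. Both Runx2_cHom_KO libraries lay above both Runx2_cHet_KO libraries in 11 of the 15, and in 26.7% of all genes tested. The 3 were Fosb, Fos and Jun. Fosb was at 450.3 and 463 FPKM in Runx2_cHom_KO libraries against 230 and 203 FPKM in Runx2_cHet_KO libraries. Fos was at 677 and 962 FPKM in Runx2_cHom_KO libraries against 384 and 383 FPKM in Runx2_cHet_KO libraries. Jun was at 388 and 498 FPKM in Runx2_cHom_KO libraries against 248 and 176 FPKM in Runx2_cHet_KO libraries. Maff, a small Maf factor, had a log2 change of 0.95 and passed the limit of adjusted p but not the size limit. The same held, with smaller rises, for Junb, Jund, Myc, Klf2, Klf4 and Csrnp1, named here after their values were seen. Over all 11909 genes tested, 872 had a limma adjusted p under 0.05. Of 18 feedback and mRNA decay genes, 1 rose and 0 fell, with a median of 0.58. It was Gadd45b, at 150.4 and 149 FPKM in Runx2_cHom_KO libraries and at 78.5 and 60.9 FPKM in Runx2_cHet_KO libraries. Zfp36, which destabilises cytokine mRNAs, had a log2 change of 1.18 and did not pass (limma adjusted p = 0.0702).

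Of 14 secreted and cytoplasmic early response genes tested in the osteoblasts, 2 rose and 0 fell, with a median log2 change of 0.52. Ptgs2, the inducible enzyme of prostaglandin synthesis, was at 89.8 and 84.2 FPKM in Runx2_cHom_KO libraries and at 42.4 and 29.4 FPKM in Runx2_cHet_KO libraries, and Ctgf, a secreted matrix-associated factor, was at 80.8 and 81.4 FPKM in Runx2_cHom_KO libraries and at 26.7 and 42.6 FPKM in Runx2_cHet_KO libraries. Il6 had a larger log2 change, 1.31, with a standard error of 0.42, and did not pass (limma adjusted p = 0.152). Of 11 upstream factors 0 rose and 0 fell, with a median of -0.02, and the largest change among them was 0.55, of the CREB coactivator Crtc3 (limma adjusted p = 0.0825). Srf was at 11.7 and 12.3 FPKM in Runx2_cHom_KO libraries and at 13.0 and 15.5 FPKM in Runx2_cHet_KO libraries. Of 4 corepressors and partners 0 passed. Of 6 known Egr1 targets tested, Thbs1 rose, Pdgfa fell and 4 did not pass. Thbs1, an extracellular matrix protein, was at 484 and 475 FPKM in Runx2_cHom_KO libraries and at 150.01 and 205 FPKM in Runx2_cHet_KO libraries. Pdgfa, a growth factor, was at 7.97 and 12.2 FPKM in Runx2_cHom_KO libraries and at 23.9 and 26.0 FPKM in Runx2_cHet_KO libraries. Of 8 heat shock genes 0 met both limits, with a median of 0.08.

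Levels of the 9 genes could be set side by side across the 4 groups, although the tables were normalised separately and the libraries made with different kits, so no test was made across them. For Egr1 and the 3 Nr4a receptors the order from high to low was Col2+ cells, Runx2_cHom_KO osteoblasts, Runx2_cHet_KO osteoblasts and Col10+ cells. Ier3 had another order, with Col10+ cells at 115 FPKM above every osteoblast library, the highest of which was at 77.8 FPKM. For Ier2 the Col10+ level of 160 FPKM lay above both Runx2_cHet_KO libraries and below both Runx2_cHom_KO libraries. For Egr4 the Col10+ level of 0.873 FPKM lay between the 2 Runx2_cHet_KO libraries, and for Egr3 the Col10+ level of 15.7 FPKM lay just under the higher of them, at 15.8 FPKM. Ranked among all genes of its column, Nr4a1 was at percentile 95.5 in Col10+ cells, 99.8 in Col2+ cells and from 99.2 to 99.6 in the osteoblasts.

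The same gene led each family in every column, while the shares of the smaller members varied. Egr1 supplied between 87.9% and 93.0% of the summed Egr FPKM in the osteoblast libraries. Egr3 exceeded Egr2 in both rib sorts, with 7.82% against 4.01% of the Egr sum in Col10+ cells and 13.0% against 5.17% in Col2+ cells. In the osteoblasts Egr3 and Egr2 were close or reversed, with 4.27% and 3.15% for Egr3 and 3.41% and 3.27% for Egr2 in Runx2_cHom_KO libraries, and 5.36% and 3.43% for Egr3 and 6.20% and 5.48% for Egr2 in Runx2_cHet_KO libraries. Egr4 supplied 0.44% in Col10+ cells and 3.04% in Col2+ cells, and from 0.23% to 0.55% in the osteoblasts. Nr4a1 supplied between 70.4% and 74.9% of the summed Nr4a FPKM in the osteoblast libraries, Nr4a2 between 15.4% and 18.8% and Nr4a3 between 9.69% and 12.1%.

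**Figure D4:**
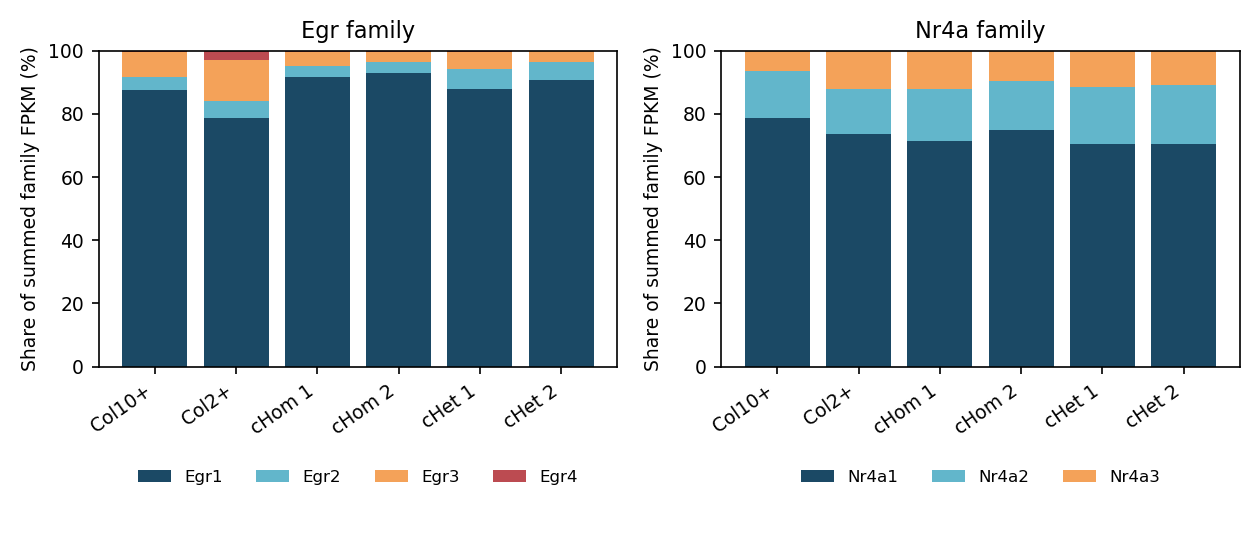
Stacked bars give each gene's share of the summed FPKM of its family in the 2 rib sorts (group values) and the 4 osteoblast libraries, for Egr1 to Egr4 (left) and Nr4a1 to Nr4a3 (right). Egr1 holds at least 78.8% of the Egr sum and Nr4a1 at least 70.4% of the Nr4a sum in every column.

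The genes most like the set were found by the distance of their profile from the median profile of the 9 members, over 6 values (2 sorts and 4 libraries) of log2(FPKM + 1) centred within each table. Among 6450 other genes, the nearest 5 were Btg2, Fzd9, Spry2, Phlda1 and Dnajb1, at distances of 0.35 to 0.53. Of the members themselves Egr3 lay nearest at 0.19 and Nr4a3 farthest at 1.59. Only Egr3 lay nearer than every other gene. For the remaining members, from 7 (Egr2) to 205 (Nr4a3) other genes lay nearer than the member, so the set was not tight. Fzd9, a Wnt receptor, was at 8.96 FPKM in Col10+ cells and 78.1 FPKM in Col2+ cells. Its osteoblast levels were 5.29 and 5.31 FPKM in Runx2_cHom_KO libraries against 3.17 and 2.73 FPKM in Runx2_cHet_KO libraries, without passing (limma adjusted p = 0.0632). Phlda1, an early response gene with a pleckstrin homology-like domain, was at 57.8 FPKM in Col10+ cells and 539 FPKM in Col2+ cells. It was the only 1 of the 5 called in the osteoblasts, at 58.9 and 76.1 FPKM in Runx2_cHom_KO libraries and 37.8 and 27.1 FPKM in Runx2_cHet_KO libraries (limma adjusted p = 0.0429).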

How the data were processed

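RNA was sequenced in 10 libraries, with a TruSeq kit from 100 ng of RNA for the rib sorts and a stranded SMARTer Pico kit from 1.7 ng for the osteoblasts, per the labels' protocols. FPKM were computed by the authors, per the file headers. TopHat2 2.1.0, Cufflinks, Cuffdiff 2.2.1 and build mm9 are named in the submitters' processing notes, without their roles. The sources used here do not say how the 3 libraries of a sort were combined, and 1 column of values that matched no sample was not used. Rows with no gene name (3444, holding 17.1% of the Col10+ and 8.48% of the Col2+ total) and with a date as name (25 and 26) were left out, and of repeated names the row with the highest mean was kept.

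A log2(FPKM + 1) scale was used, which understates changes of low genes. Among values under 0.06 FPKM, the most frequent ratio of Runx2_cHet_KO library 1 to another osteoblast library was 0.796 to 0.843. If such values are single reads, that library was the deepest, but read depth itself was not given. No counting interval could be computed. Osteoblasts were tested with limma 3.58.1 in R 4.3.3 (trended, robust variances) on genes that reached 1 FPKM in 2 or more libraries, and p-values were adjusted by the Benjamini-Hochberg method. Rib sorts had no test. Numbers shared by osteoblast libraries are not stated to mark a litter or day.

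The members, the lists and the rule for named genes were chosen with earlier results of these data known. All members are named, with up to 4 genes of each list by size of change, and the 5 nearest profiles. Alternatives covered the pseudocount, the filters, column scaling, the variance model, a replicate block and each library left out. Promoter sequences are from RefSeq. Single genes left out of the lists are not reported here.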

Additional observations from a re-analysis of the deposited data

How the results depend on the processing

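All 9 members stayed lower in Col10+ cells by at least the limit under the 5 alternatives run for the rib sorts, with a smallest log2 difference of -1.42 (Ier3, scaled columns). Scaling moved the median of all genes by over 0.1, to 0.10, and the members' median to -3.10. Over all genes, the number lower was 699 with a pseudocount of 5 and 566 with scaled columns, and the number higher was 731 at a minimum of 10 FPKM and 1940 with no minimum. With scaled columns 74.0% of changed genes were higher, in place of 49.2%. In the osteoblasts all 9 log2 changes were positive under the 11 alternatives that were run, and Egr4 could not be tested at a filter of 5 FPKM. Egr1 was called under 6 of the 11 and Ier2 under 8. Over all 11, called or not, the adjusted p was 0.0240 to 0.231 for Egr1 and 0.00796 to 0.213 for Ier2. With no filter on low values, and with variances neither trended nor robust, 1 member rose, Ier2, with an adjusted p for Egr1 of 0.0609 and 0.0618. Over all genes, limma called 106 rises and 51 falls with a pseudocount of 5, and 153 and 95 with no filter. Leaving out 1 library gave 0 to 3 members that rose, and over all genes 0 to 399 rises and 0 to 271 falls. With a replicate block 174 genes rose and 119 fell, and the members that rose were again 2. Same-numbered libraries did not deviate together over all genes (correlation -0.05). Whether they share a litter or day is not stated, and 1 correlation over genes cannot decide it. Counts not named here stayed within 1.5 times. The cause of these shifts was not tested. Read depth was unknown, so no counting error could be given for rare genes such as Egr4.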
